A study of Sus scrofa with 6 samples.

Results

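Myogenic transcription factors were read in back muscle (longissimus dorsi) taken from male piglets at 25 days of age. The family was taken as 9 genes: the paired-box factors PAX3 and PAX7, the basic helix-loop-helix (bHLH) factors MYF5, MYOD1, MYOG and MYF6, and the MADS-box factors MEF2A, MEF2C and MEF2D. Probe sets were chosen by gene symbol, or by protein title where the symbol was a placeholder. The rule found 11 probe sets of 23999 non-control probe sets on the Affymetrix porcine array, 10 by symbol and 1, that of MYF5, by title. They covered 7 genes of 6282 named on the array. MYOG and MEF2D had no probe set under the rule and were not analysed here. Of the 11 probe sets, 4 belonged to the paired-box factors, 3 to MYF5 and MYOD1, 2 to MYF6 and 2 to the MEF2 factors.

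The 6 animals, 1 array each, were 3 Yorkshire (replicates 1 to 3) and 3 Shaziling (replicates 4 to 6), an indigenous Chinese breed. No animal carried a treatment or transgene that the labels name. The labels describe the 3 animals of a breed as male full siblings and give each breed its own farm, so breed, litter and farm cannot be told apart and p-values measure the spread between siblings. Values are log2 MAS5 signals, in which a difference of 1 is a 2-fold change. MAS5 also gives each signal a detection call of Present, Marginal or Absent. Levels of different genes are not compared, since probes differ in brightness.

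As background, PAX3 and PAX7 mark the muscle lineage, and PAX7 is the defining factor of satellite cells, the stem cells that lie along muscle fibres. MYF5 and MYOD1 commit progenitors to the muscle fate, whereas MYOG drives the fusion of myoblasts into fibres. MYF6, also called MRF4, is the bHLH member that persists in mature fibres. The bHLH factors pair with E proteins on short DNA motifs called E-boxes, and the MEF2 factors act with them on muscle promoters. MEF2A and MEF2C are also made outside muscle, MEF2C for example in endothelial cells and lymphocytes.

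Muscle fibre markers were detected. All 14 on the array, among them the myosin MYH4 and the creatine kinase CKM, were tested, and their summed linear signal ran from 307613 to 372953 in Yorkshire and from 359394 to 402943 in Shaziling. Present calls covered 56.3% to 60.6% of probe sets over the 6 arrays. Other cell types were also measured in the samples. Summed signals of the tested markers were 3967 to 8252 in Yorkshire against 4212 to 7483 in Shaziling for endothelium (7 genes), 47690 to 71871 against 50374 to 63553 for fibroblasts (7 genes), and 1030 to 2076 against 1761 to 2374 for macrophages and neutrophils (6 genes). For lymphocytes (3 genes) they were 133 to 162 against 173 to 232, and for Schwann cells and nerve (2 genes) 828 to 964 against 1055 to 1207. The lymphocyte sums and the nerve sums did not overlap between breeds, higher in Shaziling. The 3 lymphocyte genes were dim, at log2 signals of 4.50 to 6.99, and only CD8A did not overlap by itself. CD3G, Present on 4 arrays, had a log2 fold change of -0.005, and PTPRC, Present on 3, had 0.35, both with overlapping breeds. Of the 2 nerve genes 1 did not overlap by itself. Among the 6 macrophage and neutrophil genes 1 passed, the lysozyme LYZ, with a log2 fold change of 2.05 (limma adjusted p = 0.0425). S100A9 of the same list, Present on 3 of the 6 arrays, was higher in Shaziling without overlap and did not pass. The endothelial VWF, Present on 5, was likewise higher without overlap and did not pass (log2 fold change 2.25, adjusted p = 0.120 in limma). In the macrophage and neutrophil list 4 genes were positive and 2 negative, and 2 did not overlap. In the endothelial list 3 were positive and 4 negative, and 2 did not overlap. The endothelial CDH5 had -0.68, with overlapping breeds. Over all tested genes 16.7% did not overlap. The part of these cells in the values of the myogenic factors was not tested. Of the 9 lymphocyte markers on the array, 6 were Present on no array, including CD3E, CD2 and CD4. Adipocyte markers (5 genes) ran from 9583 to 15284 against 9442 to 12020 and those of smooth muscle and pericytes (5 genes) from 5082 to 14456 against 7081 to 14146. Of the adipocyte genes 2 were positive and 3 negative. PPARG, Present on 5 arrays, was lower in Shaziling without overlap and did not pass (log2 fold change -0.99, limma adjusted p = 0.442). Among the fibroblast genes 0 were positive and 7 negative, and among those of smooth muscle and pericytes 1 and 4, all with overlapping breeds. The muscle fibre genes, also overlapping, had 13 positive and 1 negative. Their median of 0.13 became -0.02 under cyclic loess. In bulk tissue, fewer cells of a type and less RNA per cell cannot be told apart.

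A Present call on every array was given to 5 of the 11 member probe sets, and on no array to 5 others. Those Present on every array were the ones assigned to MYF5, MYOD1, MYF6, MEF2A and MEF2C, and these 5 were tested. The other 6 were not Present on the 3 arrays required for a test, and comprised all 4 of PAX3 and PAX7 and a second probe set each of MYOD1 and MYF6. In a limma model over 14413 probe sets, 0 of the 5 tested members passed an adjusted p of 0.05, where 0.215% of all tested probe sets did, 0.0971% as higher and 0.118% as lower in Shaziling. At an unadjusted p under 0.05 there was 1, MYF5, against 10.4% of all tested probe sets. In 0 of 5 did the signals of the breeds separate without overlap, as they did in 16.3% of all tested probe sets. The log2 fold changes were positive (higher in Shaziling) in 4 and negative in 1, with a median of 0.30, beside a median of -0.04 over all tested probe sets.

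**Figure D1:**
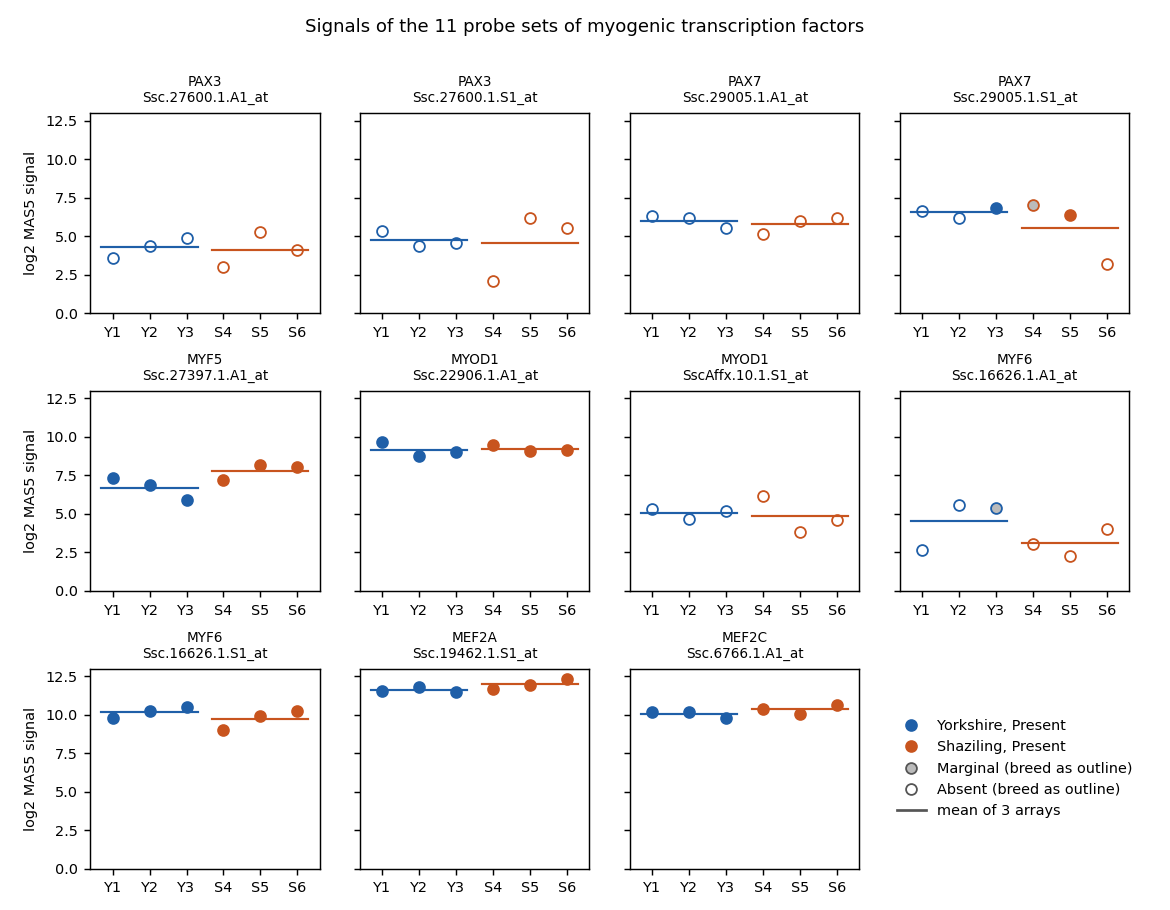
Log2 MAS5 signal (vertical axis) of each of the 11 probe sets on the 6 arrays (Y1 to Y3 Yorkshire, S4 to S6 Shaziling), filled where Present, grey where Marginal and open where Absent, with a line at each breed mean of 3 arrays. The 5 probe sets of MYF5, MYOD1, MYF6, MEF2A and MEF2C were Present on every array and the breeds overlap in each of them.

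PAX3 and PAX7, the lineage factors, were not measured well enough for a comparison. PAX3 has a probe set (Ssc.27600.1.S1_at) of which 11 probes match its mRNA, and it was Absent on all 6 arrays, at log2 signals of 2.07 to 6.15. Its target is placed on chromosome 15 from 115602995 to 115603122 with an alignment identity of only 37.0%, against 89.2% to 99.6% for the targets of MYF5, MYOD1, MYF6, MEF2A and MEF2C. PAX7 has a probe set (Ssc.29005.1.S1_at) of which 11 probes match its mRNA. Its signals were 6.63, 6.20 and 6.84 in Yorkshire and 7.01, 6.38 and 3.18 in Shaziling, with a Present call on Yorkshire replicate 3 and Shaziling replicate 5 and a Marginal call on Shaziling replicate 4. Shaziling replicate 6 lay far below the other 5 arrays, and the exact two-sided permutation p of the breed difference was 0.7, where 3 arrays against 3 cannot give less than 0.1. PAX7 was therefore at the edge of detection in both breeds, which bounds what the array shows and does not show that it is absent.

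Both paired-box genes and MYF6 also have a partner probe set built on the same sequence for which the file lists no probe matching the mRNA. For that of MYF6 (Ssc.16626.1.A1_at) the file states that 10 probes match the opposite strand. No such count is given for the partners of PAX3 and PAX7, and what the partners measure was not tested. They were Present on no array, at 2.27 to 5.59 for MYF6, up to 5.27 for PAX3 and 5.14 to 6.30 for PAX7. The MYF6 partner was Marginal on Yorkshire replicate 3.

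MYF5, a determination factor and the earliest of the bHLH family to appear in the embryo in mice, had the largest breed difference among the tested members, and it did not pass. Its probe set (Ssc.27397.1.A1_at, 9 probes matching the mRNA) lies on chromosome 5 from 93903540 to 93904275 in the file's coordinates. The file does not name its genome build in a readable form. The log2 signals were 7.35, 6.89 and 5.89 in Yorkshire and 7.21, 8.21 and 8.03 in Shaziling. Shaziling replicates 5 and 6 were above every Yorkshire array, while Shaziling replicate 4 lay below Yorkshire replicate 1 and Yorkshire replicate 3 was the lowest. The means were 6.71 ± 0.75 and 7.82 ± 0.53 (SD, n = 3), a log2 fold change of 1.11 (SE 0.42, 95% interval 0.17 to 2.05, limma adjusted p = 0.392). That is 2.16-fold higher, with an interval from 1.12-fold to 4.14-fold before adjustment for the number of probe sets. MYF5 ranked 952 of 14413 by p. Its within-breed SD of 0.65 was larger than that of 88.3% of tested probe sets, whose median was 0.34. Without Yorkshire replicate 3 the log2 fold change was 0.70 (limma adjusted p = 0.597).

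Genes listed for satellite cells, the cells that MYF5 and PAX7 are known from in postnatal muscle, were read as a set. Their signals overlapped between breeds in all 10 tested, where 16.7% of all tested genes did not overlap. How much of these signals came from satellite cells was not tested. Of 21 listed genes 13 were on the array and 10 tested. Of these 3 had positive and 7 negative fold changes, with a median of -0.10, and 0 passed. Other tested probe sets of RBPJ had 0.07 and 0.03, opposite in sign to the -0.06 counted here. The summed linear signal of the 10 genes ran from 16397 to 23404 in Yorkshire and from 19814 to 22109 in Shaziling. CAV1, the brightest of the 10 at log2 means of 13.62 in Yorkshire and 13.50 in Shaziling, made the largest part of this sum.

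MYOD1, the other determination factor, had breed means closer than its spread. The tested probe set (Ssc.22906.1.A1_at) had log2 signals of 9.66, 8.79 and 9.05 in Yorkshire and 9.46, 9.12 and 9.18 in Shaziling. The highest arrays of both breeds, Yorkshire replicate 1 and Shaziling replicate 4, were near each other, and the lowest was Yorkshire replicate 2. The means were 9.16 ± 0.45 and 9.25 ± 0.18 (SD, n = 3), a log2 fold change of 0.09 (SE 0.27, 95% interval -0.51 to 0.69, limma adjusted p = 0.938). The interval reaches from 1.42-fold lower to 1.61-fold higher in Shaziling, so changes within that range are not excluded by these arrays. The sign turned without Yorkshire replicate 2 (-0.10), without Shaziling replicate 4 (-0.01) and with array weights (-0.26).

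The 2 MYOD1 probe sets gave opposite detection calls. The second (SscAffx.10.1.S1_at) was built on the MYOD1 mRNA, with 11 matching probes, and was Absent on all 6 arrays, at 5.30, 4.67 and 5.21 in Yorkshire and 6.19, 3.84 and 4.63 in Shaziling. The tested one was built on an expressed sequence tag (EST) and tied to MYOD1 because its target overlaps the gene in the genome, with 0 probes matching the mRNA. In the file's coordinates the mRNA target spans chromosome 2 from 38709240 to 38710956 on the minus strand and the EST target from 38708498 to 38709340 on the same strand. They share 101 bases, and 742 of the 843 bases of the EST target lie past the 3' end of the mRNA target. Whether the EST probe set measures MYOD1 mRNA with a longer 3' end or another transcript was not tested, and the MYOD1 values rest on it.

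**Figure D2:**
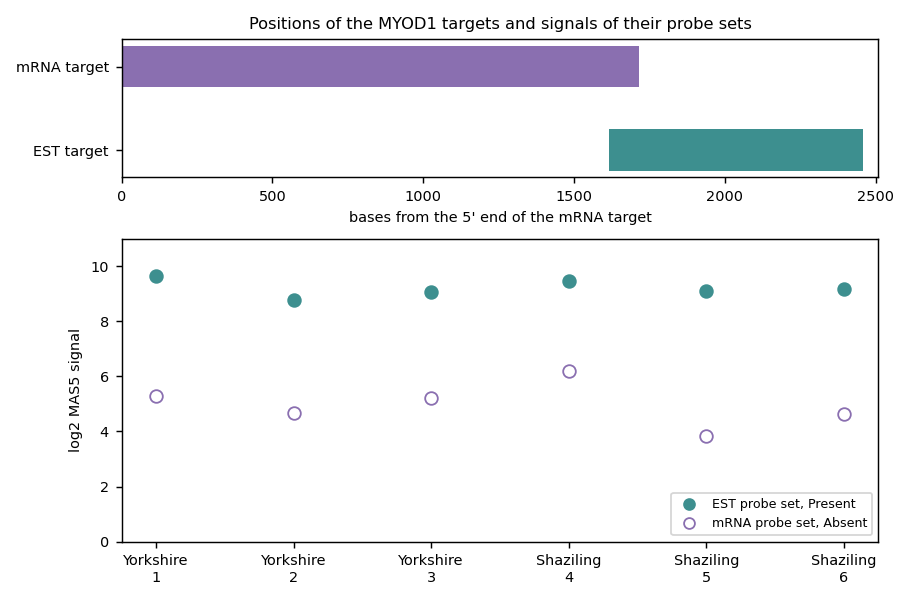
Upper panel: extent of the MYOD1 mRNA target and of the EST target along the gene, in bases from the 5' end of the mRNA target. Lower panel: log2 MAS5 signal of both probe sets on the 6 arrays, filled where Present and open where Absent. The EST probe set lay between 8.79 and 9.66, and the mRNA probe set between 3.84 and 6.19.

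MYF6, the factor of mature fibres, was the only tested member with a lower mean in Shaziling, and it did not pass. Its probe set (Ssc.16626.1.S1_at, 11 probes matching the mRNA) lies on chromosome 5 from 93892164 to 93892944 in the file's coordinates, 10595 bases from the MYF5 target. MYF5 and MYF6 are neighbouring genes, also in the gene order of the Sscrofa11.1 assembly. The log2 signals were 9.79, 10.25 and 10.47 in Yorkshire and 9.03, 9.92 and 10.25 in Shaziling. Shaziling replicate 4 was the lowest array and the other 5 overlapped. The means were 10.17 ± 0.35 and 9.73 ± 0.63 (SD, n = 3), a log2 fold change of -0.44 (SE 0.33, 95% interval -1.18 to 0.30, limma adjusted p = 0.690). Without Shaziling replicate 4 the log2 fold change was -0.09 (limma adjusted p = 0.913).

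Determination was set against differentiation through the difference between MYF5 or MYOD1 and MYF6 within each array. Of 5 planned pairs 2 could be run, since MYOG had no probe set and PAX7 was not tested. The MYF5 signal minus the MYF6 signal was -2.44, -3.36 and -4.58 in Yorkshire and -1.82, -1.71 and -2.21 in Shaziling. All 3 Shaziling arrays lay above all 3 Yorkshire arrays. The size of each difference depends on the brightness of the probes. A fixed probe brightness cancels in the shift between breeds, but the treatment of signals near background can still change it. With 50 added to each signal before the log2, the log2 fold change of MYF5 went from 1.11 to 0.81. That of MYF6 went from -0.44 to -0.41. The pairs were not run with this offset. The shift was 1.55 on the log2 scale, at the smallest exact two-sided permutation p the design allows (p = 0.1, adjusted p = 0.2 over 2 pairs), so this test could not reach 0.05. Without Yorkshire replicate 3 the shift was 0.99. The MYOD1 signal minus the MYF6 signal was -0.13, -1.47 and -1.42 in Yorkshire and 0.43, -0.81 and -1.06 in Shaziling. These overlapped between breeds, with a shift of 0.53 (exact permutation p = 0.5, adjusted p = 0.5). Yorkshire replicate 1 and Shaziling replicate 4 were the highest array of their breed in this difference, as each had the highest MYOD1 and the lowest MYF6 signal of its breed. Without Shaziling replicate 4 the shift was 0.07.

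**Figure D3:**
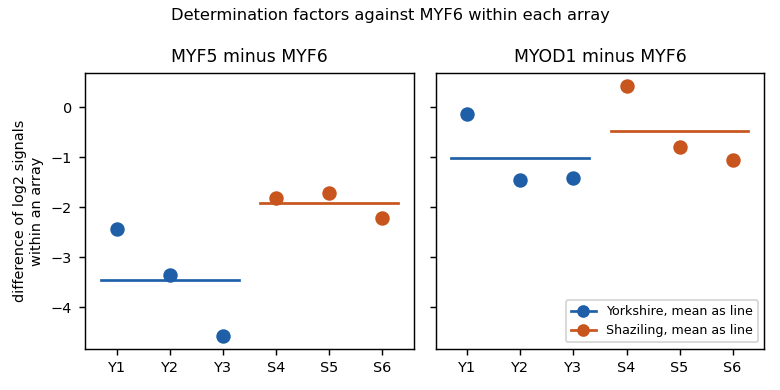
Difference of the log2 signals of MYF5 and MYF6 (left) and of MYOD1 and MYF6 (right) within each array (Y1 to Y3 Yorkshire, S4 to S6 Shaziling), with a line at each breed mean of 3 arrays. On the left the Shaziling arrays lie between -2.21 and -1.71, above the Yorkshire arrays at -4.58 to -2.44; on the right the breeds overlap.

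MEF2A and MEF2C, MADS-box partners of the bHLH factors, had slightly higher means in Shaziling, with 95% intervals that included 0, and did not pass. The MEF2A probe set (Ssc.19462.1.S1_at, 11 probes matching the mRNA, chromosome 1 from 146086064 to 146087027) had log2 signals of 11.53, 11.83 and 11.49 in Yorkshire and 11.70, 11.91 and 12.33 in Shaziling. Shaziling replicates 5 and 6 were above every Yorkshire array, and Shaziling replicate 4 lay below Yorkshire replicate 2. The means were 11.62 ± 0.19 and 11.98 ± 0.32 (SD, n = 3), a log2 fold change of 0.37 (SE 0.21, 95% interval -0.10 to 0.83, limma adjusted p = 0.579).

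The MEF2C probe set (Ssc.6766.1.A1_at, 9 probes matching the mRNA, chromosome 2 from 85645662 to 85646050) had log2 signals of 10.19, 10.17 and 9.78 in Yorkshire and 10.38, 10.03 and 10.62 in Shaziling. Shaziling replicates 4 and 6 were the highest, and Shaziling replicate 5 lay among the Yorkshire arrays. The means were 10.04 ± 0.23 and 10.34 ± 0.29 (SD, n = 3), a log2 fold change of 0.30 (SE 0.23, 95% interval -0.22 to 0.81, limma adjusted p = 0.699). The endothelial and lymphocyte signals given above are those of other cells known to make MEF2C, and their part in its signal was not tested. MEF2A and MEF2C had the smallest within-breed SDs of the 5 tested members, 0.26 each, below the median of 0.34 over all tested probe sets.

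**Figure D4:**
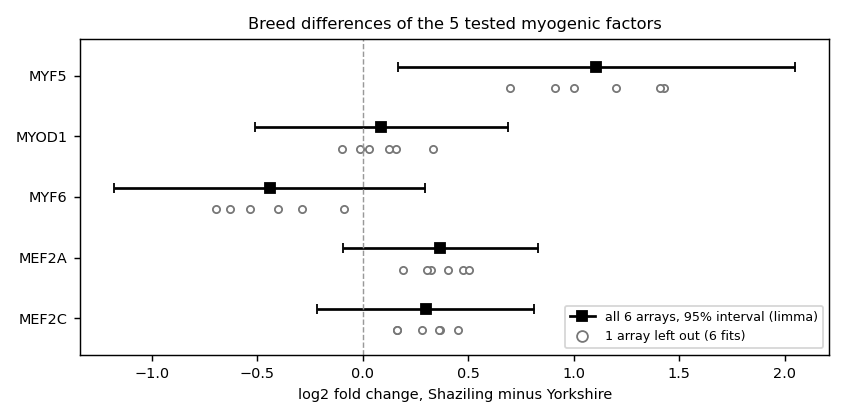
Log2 fold change, Shaziling minus Yorkshire (horizontal axis), of the 5 tested members, as squares with the 95% interval of the limma model on all 6 arrays, and as open circles for the 6 fits that each leave out 1 array. The MYF5 interval runs from 0.17 to 2.05; those of the other members include 0, and the MYOD1 circles lie on both sides of 0.

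Partners, regulators and targets of these factors were read from 6 lists of 139 genes, of which 60 had a probe set and 50 were tested, each by its brightest tested probe set. Of these 50 genes 0 passed in limma. At an unadjusted p under 0.05 there were 5 (10%, against 10.7% of all 4540 tested genes), and in 8 the breeds did not overlap (16%, against 16.7%). The shares were thus close to those of the array as a whole. Fold changes were positive in 32 and negative in 18, with a median of 0.08, where 43.1% of all tested genes were positive and their median was -0.06. The smallest adjusted p among the 50 was 0.230.

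Upstream regulators of the myogenic factors (7 tested, 3 positive, median -0.01) had 0 genes past the threshold. TEAD1 and TEAD4, factors of the Hippo pathway that bind muscle promoters, had -0.20 and -0.13, and MSC, a bHLH repressor also called musculin, had 0.24. The median of this list was 0.05 under quantile normalization and 0.04 under cyclic loess, so its sign depended on the scaling.

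Partners and cofactors (7 tested, 3 positive, median -0.10) were led by MAPK14, the p38 alpha kinase that activates MEF2 factors and E proteins in differentiating myoblasts. Its log2 signals were 10.83, 10.81 and 10.36 in Yorkshire and 11.28, 11.59 and 11.15 in Shaziling, without overlap, and the fitted log2 fold change was 0.67 (SE 0.21; adjusted p = 0.314 in limma). Its other tested probe set had 0.55, with overlapping breeds (limma adjusted p = 0.583). CSRP3, the muscle LIM protein, had -1.01 (SE 0.59), with Shaziling replicate 5 far below the rest at 11.54. SRF, a MADS-box factor, had 0.57 and SMARCD3, the BAF60c subunit that recruits chromatin remodelling to MYOD1, had -0.46.

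Inhibitors of the bHLH factors (7 tested, 5 positive, median 0.12) gave values of both signs. HEY2, a Notch target and repressor, was Present on 5 of the 6 arrays, and 1 of its 3 probe sets was tested. Its log2 signals were low, at 5.39, 5.42 and 5.70 in Yorkshire and 6.55, 6.27 and 5.95 in Shaziling, without overlap. The fitted log2 fold change was 0.76 (SE 0.35, limma adjusted p = 0.505). ID1, which captures E proteins, had -0.64 (SE 0.35). TWIST1 and BHLHE40, bHLH proteins that repress MYOD1 activity, had 0.57 and 0.60.

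Regulators of MEF2 (5 tested, 4 positive, median 0.26) included calcineurin and a deacetylase. PPP3CB, a catalytic subunit of calcineurin, had 13.07, 13.07 and 13.16 in Yorkshire and 13.30, 13.41 and 13.36 in Shaziling, without overlap, and the fitted log2 fold change was 0.26 (SE 0.13; adjusted p = 0.534 in limma). Its other tested probe set had 0.06. The other catalytic subunit, PPP3CA, had 0.39, and its other tested probe set had 0.69 without overlap and did not pass (limma adjusted p = 0.295). The kinase CAMK2D had 0.24. HDAC5, a class IIa deacetylase that holds MEF2 inactive, had 8.60, 8.60 and 8.56 in Yorkshire and 9.13, 8.82 and 8.82 in Shaziling, again without overlap, and the fitted log2 fold change was 0.34 (SE 0.21; adjusted p = 0.624 in limma).

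Target genes of myogenesis and fusion (10 tested, 9 positive, median 0.19) were led by MYBPH, a myosin-binding protein of the thick filament. Its log2 signals were 11.31, 11.31 and 12.18 in Yorkshire and 12.42, 12.80 and 12.29 in Shaziling, without overlap, and the fitted log2 fold change was 0.90 (SE 0.26; adjusted p = 0.288 in limma). RB1, the pocket protein that holds myotubes out of the cell cycle, had 0.44 and did not overlap between breeds. CDKN1A, the cell cycle inhibitor p21, had 0.61 and CKM had 0.13. The negative gene was the cardiac actin ACTC1, at -0.32.

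Targets of MEF2 (14 tested, 8 positive, median 0.03) had values of both signs. AMPD1, the AMP deaminase of fast fibres, had 14.47, 14.54 and 14.63 in Yorkshire and 14.83, 15.04 and 14.94 in Shaziling, without overlap, and the fitted log2 fold change was 0.39 (SE 0.11; adjusted p = 0.287 in limma). The coactivator PPARGC1A had -0.94 (SE 0.24, limma adjusted p = 0.230), without overlap. Myoglobin MB had -0.99 (SE 0.28) and JUN, an immediate early gene, -1.06 (SE 0.52), with Shaziling replicate 4 lowest at 10.18. The median of this list was -0.09 under quantile normalization and -0.10 under cyclic loess, so its sign depended on the scaling.

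**Figure D5:**
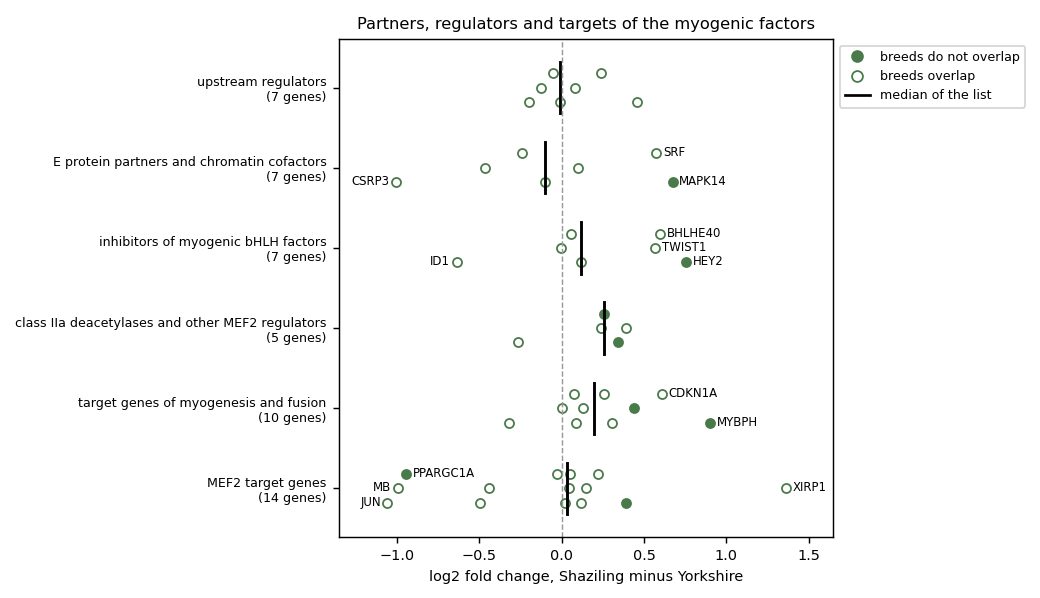
Log2 fold change, Shaziling minus Yorkshire (horizontal axis), of 1 probe set per gene in the 6 lists of regulators, partners and targets, filled where the breeds do not overlap, with a bar at the median of each list. Genes past 0.55 in either direction are named; none passed the limma threshold, and the medians lie between -0.10 and 0.26.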

How the data were processed

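The authors deposited log2 MAS5 signals per probe set and array, which the submitters' processing notes credit to MAS5 (version not given in the sources used here), with a 2% trimmed mean of about 500.1 on the linear scale on each array. Detection calls and the percent identity of each target's alignment are deposited annotation, per the file headers. The second deposited table held the same log2 signals (0 differing values). Left out were 124 control probe sets. Probe sets Present on at least 3 of 6 arrays (14413) entered limma 3.58.1 in R 4.3.3 (lmFit, eBayes with trend), as Shaziling minus Yorkshire, without an offset, with Benjamini-Hochberg adjustment over all of them. The procedure was checked on simulated data. Symbols were updated through Entrez IDs and RefSeq (Sscrofa11.1, names and gene order only), which named 8854 probe sets, and 15145 kept no name. Each list gene was read by its tested probe set of highest mean signal, with up to 4 genes of smallest p named per list, apart from items not reported here. Pairs used an exact permutation test (scipy 1.17.1). Single arrays give no counts, so precision is limited by the number of arrays. The members and lists were chosen with earlier results of these data known.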

Additional observations from a re-analysis of the deposited data

How the results depend on the processing

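None of the member probe sets passed in the main limma fit or in any of 16 alternatives, with at most 2 at an unadjusted p under 0.05. Signs of MYF5, MYF6, MEF2A and MEF2C held in all 16, with log2 fold changes of 0.70 to 1.43, -0.70 to -0.03, 0.19 to 0.53 and 0.16 to 0.45. Not all 16 could turn a sign. Changing the filter, leaving out the trend or averaging the probe sets of a gene left each of these fold changes as it was. MYOD1 turned negative in 3: -0.26 with array weights, -0.10 without Yorkshire replicate 2 and -0.01 without Shaziling replicate 4 (the cause was not tested), over -0.10 to 0.34 with 1 array left out. Smallest adjusted p-values over the alternatives were 0.215 for MYF5 and 0.124 for MEF2A. The shift of MYF5 against MYF6 ranged from 0.99 to 2.06 and that of MYOD1 against MYF6 from 0.07 to 0.97 with 1 array left out; quantile normalization gave 1.59 and 0.57, and cyclic loess 1.59 and 0.55. Among all probe sets tested, 31 passed, against 13 with no filter, 19 with a Present call on all 6 arrays, 8 without trend and 364 with array weights. With 1 array left out it was 0 to 27, with 0 in limma once Yorkshire replicate 1 or Shaziling replicate 6 was removed (1020 and 1096 at an unadjusted p under 0.05). By symbol alone the rule found 10 probe sets. Signals near background limit PAX3 and PAX7. No paired analysis was possible because the breeds share no replicate number.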

Other observations

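Some genes that the rule for naming left out are given here, chosen once the values were known. XIRP1, an actin-binding repeat protein among the MEF2 targets, had the largest positive value of the 6 lists, 1.36, with overlapping breeds. Among the satellite cell genes, TNFRSF12A, the TWEAK receptor, had 1.82 for one probe set and 1.32 for the other. The breeds overlapped in both, with Yorkshire replicate 3 (11.5 and 10.4) above Shaziling replicates 4 and 5. The identifiers of these probe sets differ only in the suffix, so they are not counted as independent. Neither XIRP1 nor TNFRSF12A passed the threshold.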
